A study of Homo sapiens with 8 samples.

Results

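Caveolae are small flask-shaped pits of the plasma membrane, and 7 genes of their coat are described here: the cavins SDPR, PTRF and PRKCDBP, the caveolins CAV1 and CAV2, and the membrane-bending proteins EHD2 and PACSIN2. They were taken by symbol from tables of 23350 symbols, and all 7 were among the 11436 genes tested. SDPR (cavin 2) was chosen by its FPKM, much higher after SUPT4H1 siRNA than after control siRNA, and the others because they are caveolar coat genes to set beside it. Reading SUPT4H1 siRNA against control siRNA is therefore a description of the 7 genes and carries no test. That choice did not use the difference between the cell lines or the difference between the lines in response, though both are read from the same 8 samples. Genes outside the coat were listed with earlier results of these data known, so their siRNA differences are not independent of what had been seen.

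RNA was sequenced from 2 human fibroblast lines, kept as population controls, after transfection of an siRNA against SUPT4H1 (2 samples of line 1 and 2 of line 2) or of a non-targeting siRNA (again 2 samples of each line). SUPT4H1 encodes SPT4, a subunit of the elongation factor DSIF that travels with RNA polymerase II. All samples were polyA RNA of cells grown in DMEM with serum and transfected by Lipofectamine RNAiMAX, and each line stands for 1 donor. The labels do not say that the replicates were separate cultures, so p-values speak only of how these samples vary, and that variation may be technical. In bulk RNA, fewer cells of a kind and less RNA per cell cannot be told apart.

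Caveolin 1, with caveolin 2 as its partner, inserts into the membrane as oligomers, and cavin 1 (PTRF) then assembles over them to form the coat. Cavin 2 (SDPR) and cavin 3 (PRKCDBP) join through cavin 1; cavin 2 is known for shaping the membrane and as a phosphatidylserine-binding substrate of protein kinase C. EHD2 is an ATPase that holds caveolae at the surface, and PACSIN2 is an F-BAR protein that bends the membrane at the neck. Fibroblasts, adipocytes, muscle and endothelium are rich in caveolae, which flatten under stretch.

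The SDPR promoter region is shown beside those of the caveolins because SDPR stood apart from CAV1 and CAV2 in response. RefSeq's GRCh38.p14 promoter table held 5 of the 7 members, under their current symbols. Each line gives 250 bases before the annotated start, 5′ to 3′ on the gene's strand, for SDPR at chr2:191847089-191847338 (minus strand), CAV1 at chr7:116524759-116525008 (plus) and CAV2 at chr7:116499488-116499737 (plus), in each case the table's first start. Capitals mark GGAATG, the core that TEAD factors bind, and GGGCGG, the GC box, on either strand.
SDPR: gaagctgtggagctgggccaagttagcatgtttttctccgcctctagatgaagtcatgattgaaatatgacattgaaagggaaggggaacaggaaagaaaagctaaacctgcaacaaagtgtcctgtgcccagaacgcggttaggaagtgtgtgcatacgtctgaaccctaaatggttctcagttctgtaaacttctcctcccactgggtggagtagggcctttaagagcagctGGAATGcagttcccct
CAV1: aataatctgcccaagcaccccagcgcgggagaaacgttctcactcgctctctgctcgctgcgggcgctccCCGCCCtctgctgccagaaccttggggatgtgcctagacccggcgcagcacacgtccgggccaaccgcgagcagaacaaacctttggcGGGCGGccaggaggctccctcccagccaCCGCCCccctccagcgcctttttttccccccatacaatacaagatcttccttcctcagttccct
CAV2: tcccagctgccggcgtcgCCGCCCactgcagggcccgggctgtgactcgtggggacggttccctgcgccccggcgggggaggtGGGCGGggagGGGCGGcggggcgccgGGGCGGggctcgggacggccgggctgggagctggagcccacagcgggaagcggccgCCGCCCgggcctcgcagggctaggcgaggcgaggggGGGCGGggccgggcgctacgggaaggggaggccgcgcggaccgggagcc
The SDPR window held 1 GGAATG match, beginning 16 bases before the start, and no GC box. The CAV1 window held 3 GC boxes, the CAV2 window 6, and neither held GGAATG. Among the windows not printed, windows 2 and 3 of CAV1 held 3 and 2 GC boxes, and window 2 of CAV2 held 3. The 1 window of EHD2 held 1 GC box, and none of these held GGAATG. Of the 6 windows of PACSIN2, the first 4 held GGAATG, beginning 49, 67, 92 and 213 bases before the start, and window 5 held 2 GC boxes. The first 3 PACSIN2 windows overlap, and their GGAATG matches are the same bases of the genome. GGAATG is thus not particular to SDPR among the members. Among all 35116 promoter windows of this length, 11.9% held GGAATG and 42.6% held GGGCGG. GC content was 48% for SDPR, 63.6% for CAV1 and 83.2% for CAV2, against a median of 58% over all windows. The TATA box TATAAA (in 10.7% of all windows), the AP-1 site TGANTCA (6.57%) and the FOXO site GTAAACA (2.98%) were also searched on both strands, and none of these 3 windows held them. No matches overlapped in the 3 printed windows. In window 2 of CAV2 the GC boxes beginning 104 and 100 bases before the start overlapped, and each was counted. The matches are letters in a window and not measured binding.

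The targeted mRNA was low in every SUPT4H1 siRNA library. SUPT4H1 stood at 1.37 to 1.74 FPKM (fragments scaled by transcript length and library size, as the authors deposited them) after SUPT4H1 siRNA and at 25.6 to 28.3 FPKM in control siRNA samples, a log2 difference of -3.425 (SE 0.035, limma adjusted p = 4.26e-11, exact permutation p = 0.0286, the smallest that 70 arrangements allow). Log2 differences here are of FPKM + 1, SUPT4H1 siRNA minus control siRNA, and understate those of low genes. With control line 1 replicate 1 set to 1, library depth ranged from 0.82 to 1.127. Fibroblast markers were abundant, with 7 of 9 at an FPKM of 1 or more in all 8 samples; The collagens COL1A1 (4 control samples) and COL1A2 (the same 4 and 1 SUPT4H1 siRNA sample) have a listed value of 0 where their status was not OK. The 5 endothelial markers summed to 0.165 to 0.284 FPKM after SUPT4H1 siRNA and 0.186 to 0.236 FPKM in control samples, and the 5 adipocyte markers to 0.324 to 1.05 and 0.258 to 1.08 FPKM. The 4 epithelial markers summed to 0.0382 to 0.142 FPKM after SUPT4H1 siRNA and 0.00929 to 0.111 FPKM in control samples. Of 5 muscle markers, MYOD1 and MYOG were at 0 throughout and the sum was 0.174 to 0.417 FPKM after SUPT4H1 siRNA and 0.621 to 1.22 FPKM in control samples. The 4 leukocyte markers summed to 59.4 to 78.1 FPKM after SUPT4H1 siRNA and 45.1 to 51.9 FPKM in control samples. Nearly all of that was CD68, a lysosomal glycoprotein. CD14 stood at 2.596 to 3.095 FPKM after SUPT4H1 siRNA and at 1.892 to 3.041 FPKM in control samples. PTPRC stayed at or below 0.206 FPKM and CD3E at 0. The part of the muscle and leukocyte lists in the results was not tested.

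SDPR, at chr2:192699032-192712006 in hg19 and 12.98 kb long, was the least abundant coat gene in every group and had the largest siRNA difference of the 7. In line 1 it stood at 8.82 and 8.15 FPKM after SUPT4H1 siRNA, against 3.14 and 3.10 FPKM in control samples. In line 2 it stood at 9.96 and 10.4 FPKM after SUPT4H1 siRNA, against 2.28 and 2.26 FPKM in control samples. The groups did not overlap: the lowest SUPT4H1 siRNA sample lay well above the highest control sample. Mean levels were 9.33 ± 1.04 and 2.70 ± 0.49 FPKM (SD, n = 4 each), 2.72 times the control level in line 1 and 4.48 times in line 2. The log2 difference with the line as block was 1.49 (SE 0.10), the 3rd largest of all genes tested. These are the values for which SDPR was chosen.

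**Figure D1:**
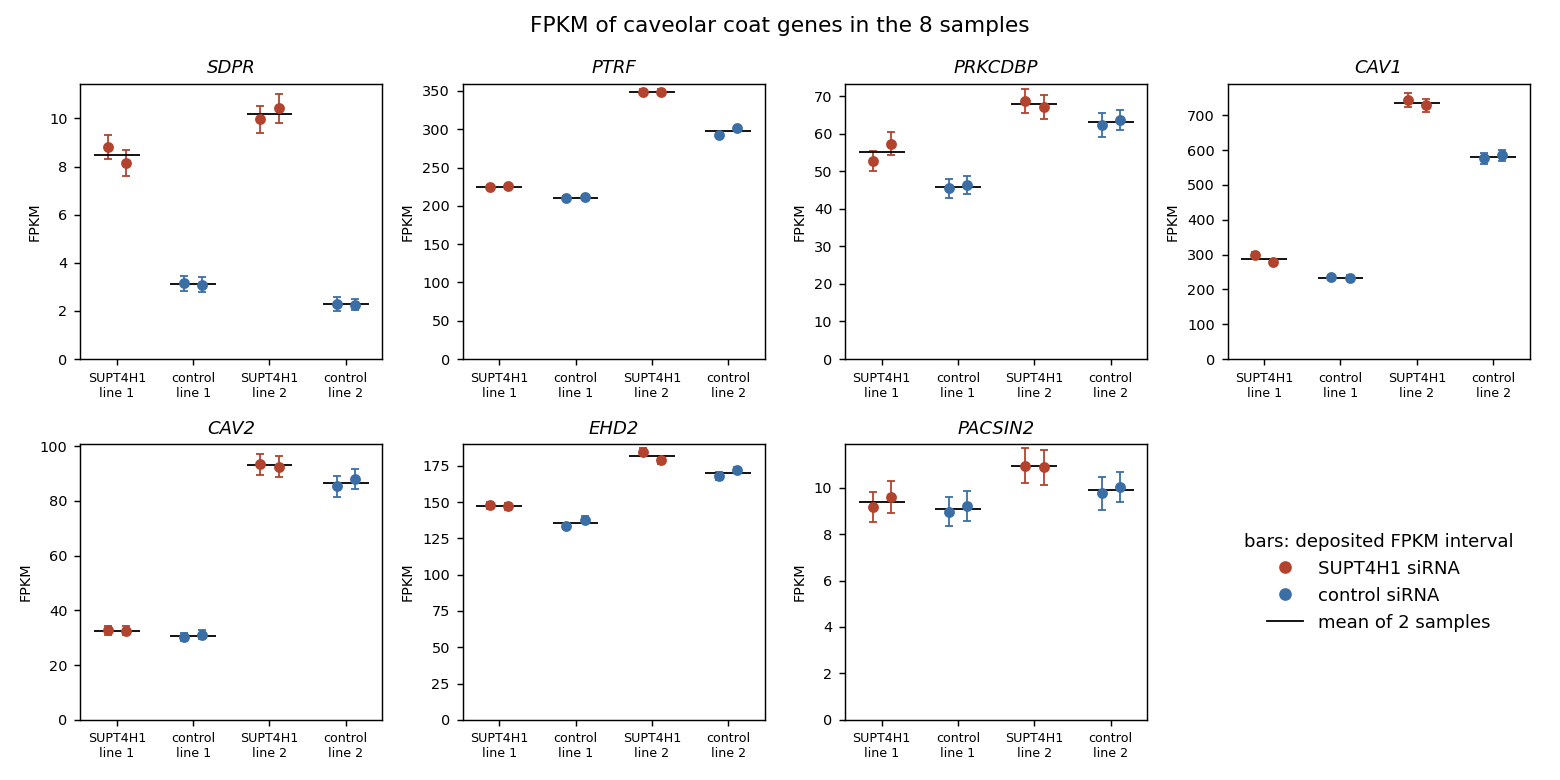
FPKM of the 7 caveolar coat genes (y axis, from 0) in SUPT4H1 siRNA and control siRNA samples of line 1 and line 2 (x axis); points are samples, bars the FPKM interval the authors deposited, black lines the mean of 2 samples. SDPR is at 8.15 to 10.4 FPKM after SUPT4H1 siRNA and 2.26 to 3.14 FPKM in control samples, while CAV1 and CAV2 separate by line more than by siRNA.

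The other cavins differed far less. PTRF (cavin 1, chr17:40554467-40575338), which drives coat assembly, stood at 224.7 and 225.3 FPKM after SUPT4H1 siRNA against 210.3 and 211.4 FPKM in control samples of line 1. In line 2 PTRF stood at 349.1 and 348.8 FPKM after SUPT4H1 siRNA against 292.4 and 302.0 FPKM in control samples. Within each line both SUPT4H1 siRNA samples were above both control samples, but the groups of 4 overlapped because line 2 was higher in either condition. PRKCDBP (cavin 3, chr11:6340176-6341740), known to bind protein kinase C delta, stood at 52.8 and 57.3 FPKM after SUPT4H1 siRNA against 45.4 and 46.4 FPKM in control samples of line 1. In line 2 PRKCDBP stood at 68.7 and 67.1 FPKM after SUPT4H1 siRNA against 62.3 and 63.7 FPKM in control samples. It too was separated within each line and not across them. The log2 differences were 0.16 for PTRF (SE 0.03) and 0.18 for PRKCDBP (SE 0.04).

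Of the caveolins, CAV1 differed more than CAV2. CAV1 (chr7:116164839-116201239), the structural protein of the pit, stood at 298.0 and 278.9 FPKM after SUPT4H1 siRNA against 234.7 and 233.6 FPKM in control samples of line 1. In line 2 CAV1 stood at 744.5 and 728.9 FPKM after SUPT4H1 siRNA against 577.0 and 584.8 FPKM in control samples. CAV1 was thus 1.23 times the control level in line 1 and 1.27 times in line 2, the next largest log2 difference of the 7 after SDPR at 0.32 (SE 0.03). CAV2 (chr7:116139655-116148595), which needs caveolin 1 to reach the surface, stood at 32.6 and 32.6 FPKM after SUPT4H1 siRNA against 30.3 and 31.1 FPKM in control samples of line 1. In line 2 CAV2 stood at 93.4 and 92.6 FPKM after SUPT4H1 siRNA against 85.3 and 88.0 FPKM in control samples. Its log2 difference was 0.09 (SE 0.02), and it was separated within each line like CAV1.

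The membrane-bending genes also differed little. EHD2 (chr19:48216601-48246391) stood at 147.9 and 147.1 FPKM after SUPT4H1 siRNA against 133.3 and 138.0 FPKM in control samples of line 1, and in line 2 at 184.4 and 179.3 FPKM after SUPT4H1 siRNA against 168.0 and 172.3 FPKM in control samples. PACSIN2 (chr22:43265772-43411184), the longest member at 145.4 kb, stood at 9.17 and 9.60 FPKM after SUPT4H1 siRNA against 8.97 and 9.23 FPKM in control samples of line 1, where the samples overlapped. In line 2 PACSIN2 stood at 10.96 and 10.9 FPKM after SUPT4H1 siRNA against 9.76 and 10.0 FPKM in control samples. The log2 differences were 0.11 for EHD2 (SE 0.025) and 0.085 for PACSIN2 (SE 0.03). Reads of an overlapping gene could not be told apart, as no use of strand is given: RefSeq lists another gene over 5 of the 7 members, CAVIN2-AS1 over SDPR among them, and none over CAV1 or CAV2.

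Across the 7, the median log2 difference was 0.16, against 0.03 over all genes tested. SDPR was ranked 3, CAV1 459, PRKCDBP 1556, PTRF 1831, EHD2 3093, CAV2 3516 and PACSIN2 3799 of 11436 by signed difference. In 6 of the 7, all but PACSIN2, both SUPT4H1 siRNA samples were above both control samples in each line, as were 28.8% of all genes tested. All 4 SUPT4H1 siRNA samples were above all 4 control samples in SDPR alone among the 7, and in 11.4% of all genes. All 7 were above 0 at an adjusted p under 0.05 in limma, where 26.8% of all genes tested were and 42% passed in either direction; the contrast served to choose SDPR, so nothing is read from that count. The deposited intervals belong to single samples and do not measure variation among samples, and how they were computed is not given. They had half-widths of 5.59 to 12.1% for SDPR, 6.55 to 7.36% for PACSIN2, 4.15 to 5.31% for CAV2 and PRKCDBP, and at most 3.18% for CAV1, EHD2 and PTRF.

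**Figure D2:**
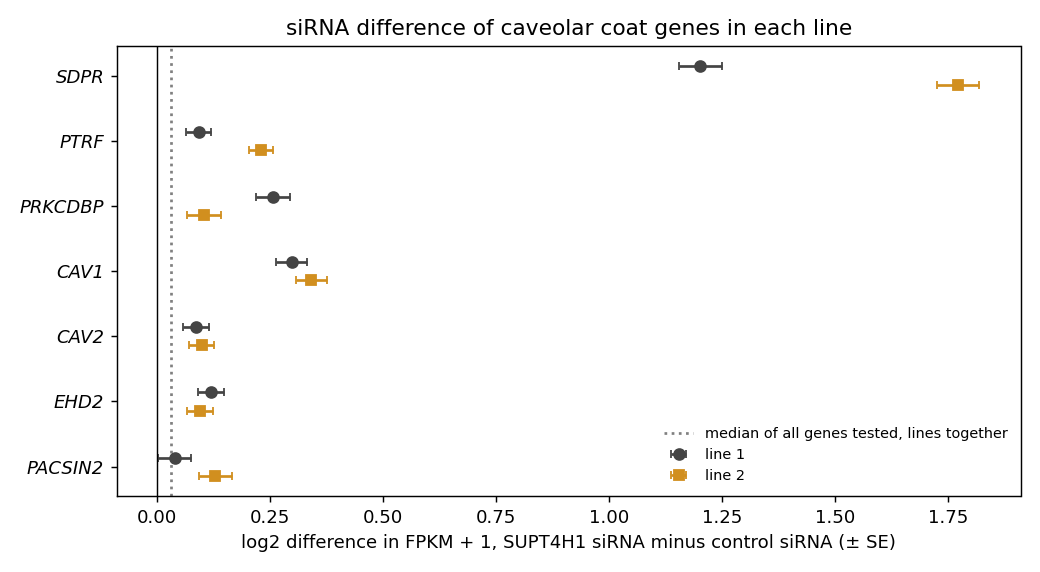
Log2 difference in FPKM + 1, SUPT4H1 siRNA minus control siRNA, of each coat gene (rows) in line 1 (circles) and line 2 (squares), with SE from the fit of 4 group means; the dotted line is the median of all genes tested, 0.03. SDPR lies at 1.20 in line 1 and 1.77 in line 2, and the other genes lie between 0.04 and 0.34.

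The lines differed in the size of the SDPR response. The log2 difference was 1.20 (SE 0.05) in line 1 and 1.77 (SE 0.05) in line 2, and line 1 minus line 2 was -0.57 (SE 0.07), which passed the test of the difference itself (limma interaction, adjusted p = 0.000817, with 0.00176 to 0.00536 when any 1 sample was left out). In this test 9.82% of all genes tested passed in either direction and 5.34% with a difference below 0, as 2 of the 7 members did. Among SUPT4H1 siRNA samples SDPR was lower in line 1 than in line 2, and among control samples it was higher in line 1, with no overlap of samples or of deposited intervals in either case. The intervals ran from 7.61 to 9.33 FPKM in line 1 and from 9.40 to 10.997 FPKM in line 2 after SUPT4H1 siRNA, and from 2.80 to 3.44 FPKM in line 1 and from 2.01 to 2.56 FPKM in line 2 in control samples. PTRF had a smaller difference of the same sign, with responses of 0.09 in line 1 and 0.23 in line 2 and a difference of -0.14 (SE 0.04, adjusted p = 0.0491). That call is at the threshold: it held without control line 2 replicate 2 (adjusted p = 0.0314) and was lost without any 1 of the other 7 samples (up to 0.151). PRKCDBP had responses of 0.26 in line 1 and 0.105 in line 2, a difference of 0.15 that did not pass (SE 0.05, adjusted p = 0.117), except without SUPT4H1 line 1 replicate 1 (adjusted p = 0.0285). The differences were -0.04 (SE 0.05) for CAV1, -0.01 (SE 0.04) for CAV2, 0.025 (SE 0.04) for EHD2 and -0.09 (SE 0.05) for PACSIN2, and none of these passed (adjusted p = 0.339 to 0.884).

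The coat genes differed between the lines without the knockdown as well. In control siRNA samples 6 of the 7 were lower in line 1 than in line 2 past the threshold, where 24.2% of all genes tested were, and SDPR was higher in line 1, as were 33.7%. The caveolins differed most: CAV1 averaged 234.1 FPKM in line 1 and 580.9 FPKM in line 2 (line 1 minus line 2, log2 difference -1.31, SE 0.03, limma adjusted p = 1.52e-09), and CAV2 averaged 30.7 FPKM in line 1 and 86.7 FPKM in line 2 (log2 difference -1.47, SE 0.03, adjusted p = 2.16e-10). PTRF differed by -0.49 (adjusted p = 2.13e-07), PRKCDBP by -0.45 (adjusted p = 6.22e-06) and EHD2 by -0.325 (adjusted p = 9.26e-06) on the log2 scale. PACSIN2 differed by -0.11 (adjusted p = 0.0294), a call lost without either control sample of line 1 or without control line 2 replicate 2 (adjusted p up to 0.154). SDPR differed by 0.33 in the opposite direction (SE 0.05, adjusted p = 0.00021), with 3.14 and 3.10 FPKM in line 1 and 2.28 and 2.26 FPKM in line 2. With 1 line per donor, donor, passage and culture cannot be told apart.

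FPKM is scaled by length, so levels can be set side by side. In control samples of line 1 the order was CAV1, PTRF, EHD2, PRKCDBP, CAV2, PACSIN2 and SDPR, and no neighbours in it overlapped. In line 2 CAV2 and PRKCDBP changed places in both conditions, and all neighbours were again apart in control samples. After SUPT4H1 siRNA PACSIN2 and SDPR had close levels, whose samples did not overlap while their deposited intervals did: 9.17 and 9.60 against 8.82 and 8.15 FPKM in line 1, and 10.96 and 10.9 against 9.96 and 10.4 FPKM in line 2. SDPR amounted to 3.93 and 3.62% of PTRF after SUPT4H1 siRNA against 1.49 and 1.47% in control samples of line 1. In line 2 that ratio was 2.85 and 2.99% after SUPT4H1 siRNA against 0.781 and 0.749% in control samples. SDPR mRNA thus remained a small part of the cavin mRNAs in all 8 samples. CAV2 amounted to 10.96 and 11.7% of CAV1 after SUPT4H1 siRNA against 12.9 and 13.3% in control samples of line 1, and in line 2 to 12.5 and 12.7% against 14.8 and 15.1%. The ratio of PRKCDBP to PTRF went opposite ways: 23.5 and 25.5% after SUPT4H1 siRNA against 21.6 and 21.9% in control samples of line 1, and 19.7 and 19.2% against 21.3 and 21.1% in line 2. No test was made of these ratios.

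**Figure D3:**
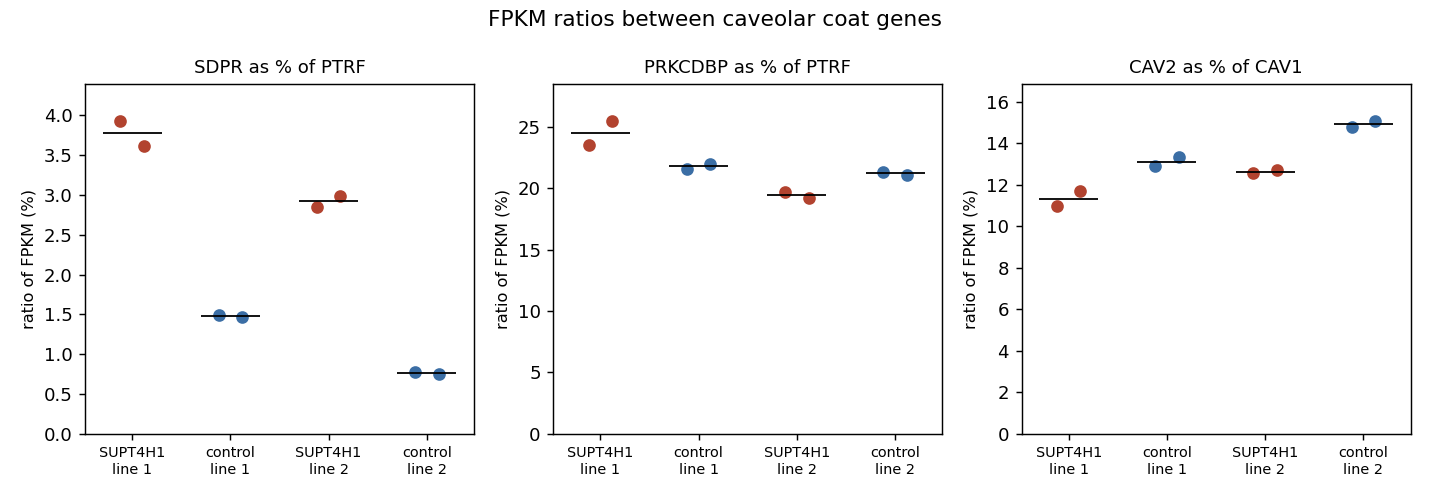
FPKM of SDPR as a percentage of PTRF, PRKCDBP as a percentage of PTRF, and CAV2 as a percentage of CAV1 (y axes, from 0) in the 4 groups (x axis); points are samples and black lines the mean of 2. SDPR per PTRF is 2.85 to 3.93% after SUPT4H1 siRNA and 0.749 to 1.49% in control samples, whereas the remaining ratios move by much less in proportion to their control values.

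By position the members are dispersed, apart from the adjoining CAV2 and CAV1 on chromosome 7, which lie 16.2 kb apart. The nearest tested gene on the other side of CAV1 is MET, a growth factor receptor gene, and on the other side of CAV2 is TES, the gene of the focal adhesion protein testin. MET stood at 6.23 ± 1.46 FPKM after SUPT4H1 siRNA and 4.67 ± 0.79 FPKM in control samples (log2 difference 0.34, adjusted p = 0.00028), and TES at 17.8 ± 10.8 and 16.1 ± 10.2 FPKM (0.15, adjusted p = 0.00677). The tested neighbours of SDPR are distant, NABP1 at 145.8 kb and SLC39A10 at 3809.5 kb. NABP1, a single-stranded DNA binding protein gene, rose by 0.22 (adjusted p = 0.0003) and SLC39A10, a zinc transporter gene, fell by 0.14 (adjusted p = 0.0158) on the log2 scale. Beside PTRF, the transcription factor gene STAT3 had a difference of 0.08 that did not pass (adjusted p = 0.0977) and ATP6V0A1, of the vacuolar proton pump, rose by 0.28 (adjusted p = 0.00876). Beside PRKCDBP, SMPD1, which encodes acid sphingomyelinase, rose by 0.56 (adjusted p = 9.73e-07) and FAM160A2 by 0.135 (adjusted p = 0.0103). Beside EHD2, GLTSCR2 fell by 0.375 (adjusted p = 7.3e-05) and GLTSCR1 had -0.04 (adjusted p = 0.498). Beside PACSIN2, ARFGAP3 fell by 0.135 (adjusted p = 0.0016) and TTLL1 had 0.01 (adjusted p = 0.806).

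The profile of SDPR over the 8 samples was set against that of every gene tested, as the root mean square distance between log2(FPKM + 1) values centred on their mean. LOC101927740 was closest at 0.225, followed by PRELP at 0.26, LRRC17 at 0.29, and TFPI2 and PALMD at 0.30. LOC101927740, with no role given here, stood at 7.31 ± 2.53 FPKM after SUPT4H1 siRNA and 1.63 ± 0.14 FPKM in control samples. PRELP, a matrix proteoglycan that binds collagen, stood at 43.4 ± 3.31 FPKM after SUPT4H1 siRNA and 20.9 ± 0.71 FPKM in control samples. LRRC17 stood at 4.94 and 4.47 FPKM after SUPT4H1 siRNA against 2.73 and 2.83 FPKM in control samples of line 1, and at 4.87 and 5.43 FPKM against 1.28 and 1.49 FPKM in line 2. Like SDPR, LRRC17 was higher in line 1 than in line 2 among control samples. TFPI2, a serine protease inhibitor, stood at 5.27 ± 1.01 and 1.69 ± 0.24 FPKM, and PALMD, the palmdelphin gene, at 2.40 ± 0.13 and 0.76 ± 0.11 FPKM. No coat gene was close: PRKCDBP, the nearest, was at 0.71 and in place 2780, and CAV2 at 1.04 in place 11125. These genes were found by their likeness to SDPR, so their siRNA differences are no further evidence.

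Genes around the coat moved in both directions. Of 48 further caveola-related genes listed, 40 were tested, and 12 rose, 12 fell and 16 did not pass in limma with the line as block, against 26.8% rising and 15.2% falling of all genes tested. After scaling by median ratios 11 rose and 14 fell, and of all genes 2315 rose and 2307 fell in place of 3069 and 1737, so that 50.1% of the calls over all genes were rises in place of 63.9%. Unscaled, the median log2 difference of the 40 was 0.01, against 0.03 over all genes. With no term for the line 1 rose and 2 fell, TEAD1 and TGFBR1. The muscle paralogs CAV3 and MURC (cavin 4) were not tested, with at most 0.267 and 0.567 FPKM in any sample.

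Of the 4 EHD and PACSIN paralogs tested, 3 rose and 1 fell, with a median of 0.16. EHD1, which acts in endocytic recycling, stood at 35.4 and 34.6 FPKM after SUPT4H1 siRNA against 28.7 and 27.7 FPKM in control samples of line 1, and at 48.3 and 49.3 FPKM against 38.2 and 38.2 FPKM in line 2 (log2 difference 0.32, SE 0.02, adjusted p = 1.95e-05). EHD4 rose by 0.17 (adjusted p = 0.00289) and PACSIN3 rose too, at 9.36 ± 1.22 FPKM after SUPT4H1 siRNA and 8.28 ± 0.47 FPKM in control samples (adjusted p = 0.0105). EHD3 went the other way, with 12.5 and 11.6 FPKM after SUPT4H1 siRNA against 14.4 and 14.1 FPKM in control samples of line 1 and 18.8 and 18.7 against 20.4 and 20.3 FPKM in line 2 (adjusted p = 0.00332). PACSIN1, the neuronal paralog, was at 0.0754 FPKM or less.

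Of the 12 dynamins, kinases and anchors, 3 rose, 4 fell and 5 did not pass, with a median of 0.01. DNM1, a dynamin best known from neurons, fell to 30.6 and 30.7 FPKM after SUPT4H1 siRNA, against 37.0 and 37.0 FPKM in control samples of line 1, and to 18.3 and 16.6 FPKM against 27.6 and 27.4 FPKM in line 2 (log2 difference -0.45, adjusted p = 0.000885). DNM2, the ubiquitous dynamin that pinches off vesicles, averaged 20.3 ± 0.97 FPKM after SUPT4H1 siRNA and 20.0 ± 0.51 FPKM in control samples, a difference short of the threshold (adjusted p = 0.64). ROR1, a receptor known to scaffold cavin 1 and caveolin 1, stood at 4.63 ± 0.89 FPKM after SUPT4H1 siRNA and 5.92 ± 0.98 FPKM in control samples and fell by 0.30 (adjusted p = 0.0004). FYN, a Src family kinase, fell by 0.24 (adjusted p = 0.000152), and SRC, which phosphorylates caveolin 1, rose by 0.14 (adjusted p = 0.00141). FLNA, the actin crosslinker that ties caveolae to stress fibres, rose by 0.16 (adjusted p = 0.00558). PRKCA, whose product phosphorylates cavin 2, fell by 0.10 (adjusted p = 0.0297), while PRKCD, the kinase that cavin 3 binds, rose by 0.13 (adjusted p = 0.048). Both calls are near the threshold: that of PRKCA held with 1 sample left out only where it was replicate 1 of either siRNA in line 1, and that of PRKCD only where it was control line 1 replicate 2 or SUPT4H1 line 1 replicate 1 (adjusted p up to 0.0792 and 0.135). ABL1, the most abundant that did not pass, stood at 35.6 ± 3.33 and 34.5 ± 4.08 FPKM (adjusted p = 0.125).

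**Figure D4:**
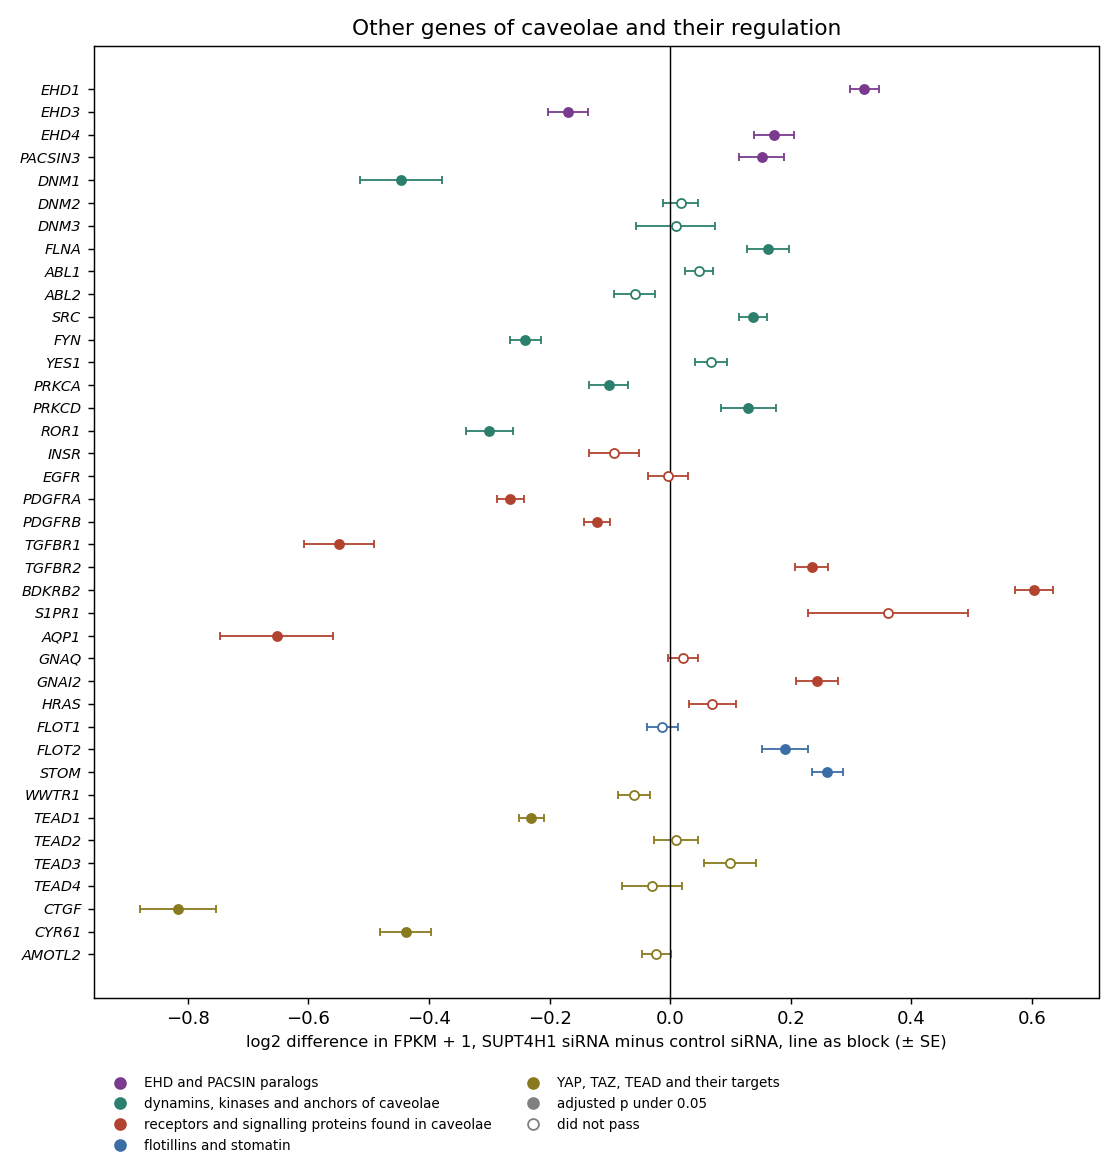
Log2 difference in FPKM + 1, SUPT4H1 siRNA minus control siRNA with the line as block, of 39 tested genes outside the coat (rows), coloured by list, with SE bars; filled points are at an adjusted p under 0.05. Values run from -0.82 for CTGF to 0.60 for BDKRB2, with 11 filled points above 0 and 12 below.

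Of the 13 receptors and signalling proteins tested, 4 rose, 4 fell and 5 did not pass, with a median of 0.02. BDKRB2, the bradykinin B2 receptor, rose to 18.7 and 17.5 FPKM after SUPT4H1 siRNA, against 11.7 and 11.9 FPKM in control samples of line 1, and to 11.98 and 11.98 FPKM against 7.53 and 7.19 FPKM in line 2 (log2 difference 0.60, SE 0.03, adjusted p = 2.58e-06). AQP1, a water channel, fell to 14.1 and 13.8 FPKM after SUPT4H1 siRNA, against 18.7 and 18.4 FPKM in control samples of line 1, and to 8.29 and 7.76 FPKM against 15.8 and 16.4 FPKM in line 2 (log2 difference -0.65, adjusted p = 0.000609). The receptors of TGF-beta parted: TGFBR1 fell by 0.55 (adjusted p = 0.000131) and TGFBR2 rose by 0.235 (adjusted p = 0.000214). Both PDGF receptor genes fell, PDGFRA by 0.265 (adjusted p = 4.72e-05) and PDGFRB by 0.12 (adjusted p = 0.00205). GNAI2, a G protein alpha subunit, stood at 148.5 ± 23.9 FPKM after SUPT4H1 siRNA and 124.5 ± 12.7 FPKM in control samples and rose by 0.24 (adjusted p = 0.000596). S1PR1, a sphingosine phosphate receptor, did not pass (adjusted p = 0.0546, though 0.0231 when control line 1 replicate 1 was left out and 0.0206 when SUPT4H1 line 1 replicate 2 was), and its lines parted: 1.95 and 1.67 FPKM after SUPT4H1 siRNA against 1.95 and 1.75 FPKM in control samples of line 1, and 6.70 and 6.56 FPKM against 3.60 and 3.51 FPKM in line 2 (limma interaction, adjusted p = 0.000675). HRAS, the most abundant that did not pass, stood at 16.1 ± 0.48 and 15.3 ± 0.82 FPKM (adjusted p = 0.185). The fatty acid transporter CD36, below the filter, averaged 1.45 ± 0.93 and 0.286 ± 0.23 FPKM, and EDNRA and NOS3 were also not tested.

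Flotillins organise membrane domains apart from caveolae. Of FLOT1, FLOT2 and stomatin (STOM), 2 rose and 0 fell, with a median of 0.19: STOM stood at 68.5 and 72.0 FPKM after SUPT4H1 siRNA against 58.5 and 59.0 FPKM in control samples of line 1 and at 50.4 and 49.7 FPKM against 40.5 and 42.3 FPKM in line 2 (adjusted p = 8.94e-05), and FLOT2 rose by 0.19 (adjusted p = 0.00375). FLOT1, whose value sums several rows of one symbol, stood at 50.4 ± 6.58 and 50.6 ± 4.56 FPKM (adjusted p = 0.73).

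YAP and TAZ, which act through TEAD factors, are known to control caveolin and cavin genes. Of the 8 members of this list tested, 0 rose, 3 fell and 5 did not pass, with a median of -0.045. CTGF, a matricellular protein gene and a standard YAP target, fell to 53.7 and 50.2 FPKM after SUPT4H1 siRNA, against 102.9 and 102.5 FPKM in control samples of line 1, and to 134.5 and 146.3 FPKM against 214.7 and 230.6 FPKM in line 2 (log2 difference -0.82, SE 0.06, adjusted p = 2.26e-05). CYR61, a related matricellular gene, fell by 0.44 (adjusted p = 8.63e-05), and TEAD1 fell to 28.1 ± 0.40 FPKM after SUPT4H1 siRNA, against 33.2 ± 0.14 FPKM in control samples (adjusted p = 6.65e-05). WWTR1, which encodes TAZ, averaged 23.9 ± 0.67 FPKM after SUPT4H1 siRNA and 25.0 ± 0.33 FPKM in control samples, short of the threshold (adjusted p = 0.0943), as was AMOTL2 at 33.7 ± 6.38 and 34.3 ± 6.16 FPKM (adjusted p = 0.46). YAP1 was not tested because its status was OK in 6 of 8 samples, and ANKRD1 because it reached no more than 0.818 FPKM. Both averaged higher after SUPT4H1 siRNA than in control samples, YAP1 at 49.25 ± 5.73 and 44.1 ± 2.5 FPKM and ANKRD1 at 0.402 ± 0.407 and 0.090 ± 0.091 FPKM.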

How the data were processed

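Per the file headers, the authors deposited FPKM per gene with interval bounds and a status, in tables of 27032 rows; the build is hg19 per the submitters' processing notes, and no aligner, quantifier or annotation is named there (not given in the sources used here). Rows of miRNA, snoRNA and scaRNA genes (2068) were left out and rows of one symbol summed. Genes with a mean FPKM of at least 1 and status OK in every sample were tested (11436; status left out 12). limma 3.58.1 in R 4.3.3 was fitted to log2(FPKM + 1) allowing for a mean-variance trend; tests were 2-sided, p-values adjusted after Benjamini and Hochberg across the genes tested, threshold 0.05. The siRNA comparison had the line as block; line differences came from a fit of 4 group means. The fit was tested on simulated data. Deviations of samples of one line from their siRNA group means correlated at 0.851 to 0.897, so the line pairs the groups. Fragment numbers are not given; relative depth came from rows whose interval width is that of 1 to 3 fragments, within 0.005. Named genes were the members, up to 3 of each list with the largest difference that passed and the most abundant that did not, the 5 profiles closest to SDPR and the nearest tested neighbours; other list genes were chosen after their values were seen, and 1 counted list gene is not reported here. Members and lists were chosen with earlier results of these data known. Alternatives varied pseudocount, filter, scaling, trend, block and samples. Python 3.11.15, pandas 2.3.3, numpy 2.4.6, scipy 1.17.1 and matplotlib 3.10.9 were used.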

Additional observations from a re-analysis of the deposited data

Results flagged for a closer look

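The siRNA response of SDPR differed between the lines, by -0.57 on the log2 scale (line 1 minus line 2, SE 0.07, limma interaction, adjusted p = 0.000817), with responses of 1.20 in line 1 and 1.77 in line 2 and both SUPT4H1 siRNA samples above both control samples in each line. The response of PTRF differed by -0.14 (SE 0.04, adjusted p = 0.0491), with responses of 0.09 in line 1 and 0.23 in line 2. These are 2 of 7 members, where 9.82% of all genes tested passed this test.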

How the results depend on the processing

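The siRNA differences of all 7 members kept their sign under every alternative. That of SDPR was 1.765 with a pseudocount of 0.1 and 1.419 to 1.565 with 1 sample left out. After scaling by median ratios those of PTRF, CAV2, EHD2 and PACSIN2 were 0.127, 0.058, 0.072 and 0.053; that of PTRF was 0.139 to 0.177 with 1 sample left out. The difference between lines in PTRF response, -0.138, did not pass with a pseudocount of 0.1 (limma interaction, adjusted p = 0.0509), with no filter (0.0816) or without the mean-variance trend (0.121). It passed after scaling by median ratios, at -0.127 (adjusted p = 0.0249). With 1 sample left out it was -0.161 to -0.115, and that of PRKCDBP was 0.094 to 0.21. The line difference of PACSIN2 was -0.128 to -0.09 with 1 sample left out. With no replicate block, 407 genes rose and 201 fell in place of 3069 and 1737. Of the other caveola genes 1 rose and 2 fell in place of 12 and 12. All genes called and named from those lists, except TEAD1 and TGFBR1, then lost their call. The neighbours NABP1, SLC39A10, ATP6V0A1, FAM160A2, MET, TES, GLTSCR2 and ARFGAP3 lost theirs too. By replicate number, deviations of samples correlated at 0.256 in line 1 and -0.055 in line 2, so pairing by number did not hold in both lines. With a replicate block by line and number 2585 genes rose and 1441 fell, 11 and 11 of the other caveola genes among them. PRKCD (limma adjusted p = 0.0847) and PRKCA (0.0656) were then lost. Scaling by median ratios also lost PRKCD (0.111) and brought in WWTR1 (0.0186) and INSR (0.0496), both below 0. Causes were not tested. Low levels limit precision most for SDPR in control samples.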

Other observations

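CAV2 and CAV1 lie next to TES on chromosome 7, and all 3 were far lower in line 1 than in line 2 in control samples, by -1.47, -1.31 and -1.65 on the log2 scale (adjusted p = 2.16e-10, 1.52e-09 and 1.65e-09 in limma), with MET on the far side of CAV1 at -0.35 (adjusted p = 0.000121). TES was singled out after its value was seen. Beside EHD2, GLTSCR2 was higher in line 1, by 0.71 (adjusted p = 3.05e-08), and beside PTRF, STAT3 was higher in line 1, by 0.44 (adjusted p = 7.54e-07), where the members themselves were lower. The muscle marker DES, a low transcript, stood at 0.125 to 0.398 FPKM after SUPT4H1 siRNA and 0.584 to 1.19 FPKM in control samples.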
